A study of Arabidopsis thaliana with 4 samples.

Results

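The regions described here are the 4234 regions called in the KAN1 chromatin immunoprecipitation data whose reads in the ChIP libraries were at least 2 and less than 3 times those in the controls. They were chosen on these measured reads. The ratio was the mean of the reads in both ChIP libraries divided by the summed reads of both control libraries, and it was computed for the 22103 of 22109 deposited regions that lie on chromosomes 1 to 5. Of those, 19.2% had a ratio of 2 to under 3, 4166 regions had a ratio of 3 or above and 13703 had a ratio under 2. The 3 sets are called intermediate, strong and weak regions here.

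The 2 ChIP libraries, KAN1-FLAG replicates 1 and 2, came from 35S:FLAG-GR-KAN1 plants, in which the 35S promoter drives a fusion of KAN1 with a FLAG epitope and the rat glucocorticoid receptor in most tissues. The chromatin was collected with anti-FLAG magnetic beads. The 2 control libraries, KAN1 negative 1 and 2, are labelled as input, whereas the study's methods describe a single control library from Col-0 plants without the transgene. By the labels, the plants of all 4 libraries were Columbia-0, spent 10 days in liquid culture and were given dexamethasone (DEX) for 45 min, which releases a receptor fusion into the nucleus. By the labels the precipitation step differed between ChIP and control, and by the study's methods the transgene did. Whether both differed is not stated. The separate effects of the transgene and the precipitation step on the ratio were not tested. The labels do not say whether the replicates came from separate plants. The fusion is overexpressed in whole plants, and binding of the native KAN1 protein was not measured.

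KANADI1 (KAN1) belongs to the GARP family of transcription factors, which bind DNA through a Myb-like domain. It promotes abaxial, or lower, identity in leaves and acts largely as a repressor. Class III HD-ZIP proteins promote the opposite, adaxial identity, and the regulation of auxin transport and response is part of how the borders between the domains of an organ are drawn.

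Of the 4234 intermediate regions, 2334 (55.1%) carry the short sequence VGAATAW in the 300 bp around the midpoint. In it, V stands for any base but T, and W for A or T. The sequences below show the site nearest to the midpoint of each intermediate region that held a site and was the highest region of a gene in the KANADI, HD-ZIP III, MIR165 and MIR166, YABBY, AS1 and AS2 or AUXIN RESPONSE FACTOR (ARF) lists, followed by the 3 intermediate regions with most sites. All were read on the plus strand of TAIR10.1, as given by RefSeq. Capitals mark VGAATAW on either strand, and a site on the minus strand reads as its reverse complement.
REV, chr5:24394522-24394582: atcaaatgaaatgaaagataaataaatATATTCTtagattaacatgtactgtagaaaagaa
MIR166A, chr2:19178963-19179023: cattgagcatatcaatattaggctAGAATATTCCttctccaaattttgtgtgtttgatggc
BOP1, chr3:21145074-21145134: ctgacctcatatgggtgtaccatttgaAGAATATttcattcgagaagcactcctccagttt
ARF11, chr2:19103579-19103639: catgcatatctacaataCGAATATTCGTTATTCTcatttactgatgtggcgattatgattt
ARF12, chr1:12506796-12506856: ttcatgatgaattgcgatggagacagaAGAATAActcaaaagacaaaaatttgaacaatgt
ARF17, chr1:29271927-29271987: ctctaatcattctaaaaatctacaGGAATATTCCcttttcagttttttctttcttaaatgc
AT1G70280, chr1:26468868-26468928: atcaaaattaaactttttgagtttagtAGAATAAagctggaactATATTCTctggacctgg
HAM4, chr4:17303382-17303442: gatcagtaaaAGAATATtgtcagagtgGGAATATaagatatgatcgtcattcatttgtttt
SPX2, chr2:11338790-11338818: tttaaaattggATATTCCaaaaacaaaac

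In the stretches near MIR166A, ARF11 and ARF17, a site on each strand overlapped to form the palindrome GAATATTC. The ARF11 stretch showed 3 of the 4 sites in its window. The region upstream of AT1G70280 held 6 sites in the 300 bp around its midpoint. The regions upstream of HAM4, a GRAS transcription factor of the shoot meristem, and of SPX2, a sensor in phosphate signalling, held 5 each. Of these 9 sites, the one near SPX2 lay in an exon and the other 8 were intergenic.

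The reads behind the intermediate regions were modest, and the ratio of a single region was known only roughly. ChIP replicate 1 had between 9 and 508 reads in an intermediate region, with a median of 102. ChIP replicate 2 had between 2 and 244, with a median of 51. Control 1 had between 3 and 137, with a median of 31, and control 2 between 0 and 8, with a median of 0.225. Control 2 was thus nearly empty, with no reads in 2114 of the 4234 regions, and control 1 set the denominator. Over all regions on the chromosomes the 4 libraries held 2.08e+06, 1.04e+06, 661648 and 13441 reads in the order just given. These totals cover called regions only, and the full depth of the libraries is unknown.

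The median ratio of the intermediate regions was 2.38, against 4.07 in strong regions and 1.23 in weak ones, a difference that the choice of regions fixed. Divided by the same controls, replicate 1 alone had a median ratio of 3.19, with values from 1.73 to 4.91, and replicate 2 alone a median of 1.59, with values from 0.417 to 3. Replicate 1 alone was at 3 or above in 2806 intermediate regions (66.3%), and replicate 2 alone in 1. Replicate 2 was above replicate 1 in 21 regions. The median quotient of the reads of replicate 1 and replicate 2 was 2.02, and the SD of the unscaled ratios holds this difference between the libraries, whose source was not tested. With the replicates scaled to equal total reads, their median ratios were 2.39 and 2.40, the SD of the 2 scaled ratios had a median of 0.274 (2 replicates per region), and both scaled ratios lay from 2 to under 3 in 2282 regions (53.9%). In 763 regions (18.0%) 1 of the scaled ratios reached 3, and in none did both.

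**Figure D1:**
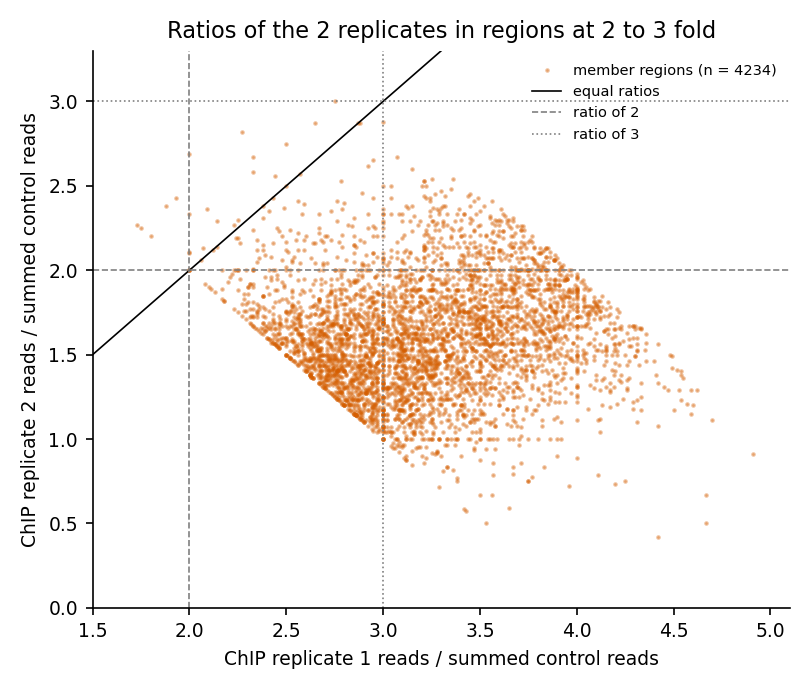
Each point is 1 of the 4234 intermediate regions, with the ratio of ChIP replicate 1 to the summed controls on the horizontal axis and that of replicate 2 on the vertical axis. All but 21 points lie on or below the line of equal ratios, and the oblique edges are the limits of 2 and 3 on the mean ratio.

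Counting error alone spanned the thresholds. The exact 95% interval of the ratio, from the binomial split of reads between ChIP and control, had median bounds of 1.60 and 3.71 in intermediate regions. It reached 3 in 3922 of them (92.6%), fell below 2 in 3822 (90.3%) and held both values in 3510 (82.9%). In none did it lie wholly between 2 and 3. Likewise, 2327 of the 4166 strong regions (55.9%) had an interval that reached below 3. These intervals cover counting error only, and most intermediate regions could not be placed on one side of either threshold at this depth.

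The regions at the edges of the set differed little from their neighbours outside it. A ratio of exactly 2 was found in 143 regions. Among them were a region 113 bp upstream of CNGC10, a cyclic nucleotide-gated ion channel gene, with 89, 35, 29 and 2 reads in ChIP replicates 1 and 2 and controls 1 and 2, and a region 797 bp upstream of MAGPIE (MGP), a zinc finger gene of root patterning, with 40, 20, 15 and 0. Another lay inside AT1G02610 (73, 43, 28 and 1 reads). Just below were regions 306 bp downstream of S1P at 1.9967, 133 bp downstream of AT4G24750 at 1.9941 and inside AT4G18340 at 1.9923. At the other edge, the highest intermediate regions lay inside AT1G12938 (2.9964), 1193 bp upstream of LSU2, a gene of the sulphur-deficiency response (2.9926), and 1422 bp upstream of AT4G36550 (2.9926). Positions in this paragraph follow the deposited annotation, and in the reference the midpoint of the AT1G12938 region was intergenic. Exactly 3 was reached in 40 regions, such as those 1133 bp upstream of GA2OX6, which encodes a gibberellin-inactivating oxidase, 290 bp downstream of AT1G04500 and inside GLR3.4, a glutamate receptor-like channel gene. There were 266 regions from 2.9 to under 3 and 265 from 3 to under 3.1. No gap in the ratios marked either limit.

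The size of a called region followed its ratio. Intermediate regions had a median size of 302 bp, with quartiles of 236 and 368 bp and a range of 131 to 809 bp. Strong regions had a median of 354 bp and weak regions 199 bp. Size and ratio come from the same reads, and no test was made.

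Sequence and gene position were not used in the choice of the regions. They were compared with strong and weak regions by two-sided Fisher's exact tests, with p-values adjusted by the Benjamini-Hochberg method over the 19 tests made. The region is the unit of these tests. Neighbouring regions share genes, and the p-values cover counting error over regions, not the spread between plants.

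The VGAATAW sequence was found less often in intermediate than in strong regions and more often than in weak ones. The study derived this sequence from a motif search in the most enriched regions of these same data, chosen by a similar limit as the strong regions. Part of its excess in strong regions may therefore come from how it was found, and its tests are not independent of that search. A 300 bp window at the midpoint held at least 1 site on either strand in 2334 intermediate regions (55.1%, 95% Wilson interval 53.6 to 56.6), 65.5% of strong regions and 44.2% of weak regions. Over the windows of all 22103 regions the share was 50.3%. The difference from strong regions was -10.4 percentage points (95% interval -12.5 to -8.30, odds ratio 0.647, adjusted exact p = 7.08e-22), and that from weak regions was 10.9 points (9.18 to 12.6, odds ratio 1.55, adjusted exact p = 1.51e-34). In windows of the same length 1000 bp beyond each end of the intermediate regions, 29.0% held a site, near the 30.6% beside strong and 28.1% beside weak regions. A single site was present in 1505 intermediate regions, 2 sites in 636 and 3 or more in fewer still, with 152 at 3, 33 at 4, 7 at 5 and 1 at 6. The remaining 1900 windows had none. The median GC content of the windows was 32.0% in intermediate and strong regions and 33.0% in weak ones.

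The sites of intermediate regions lay close to the midpoint. Of 3406 sites in the windows, 66.3% were in the central 150 bp, where an even spread would put 50%, and the shares were 64.5% in strong and 65.1% in weak regions. The 50 bp bins on either side of the midpoint held 0.200 and 0.188 sites per intermediate region, and the outermost bin, from -500 bp, held 0.0640. The corresponding values were 0.242, 0.247 and 0.0691 in strong regions. The letters at the variable positions differed little between the sets. Sites starting with A made up 28.1% (ending in A) and 26.5% (ending in T) of those in intermediate regions, and 27.9% and 25.2% in strong regions, while C was the rarest first letter.

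**Figure D2:**
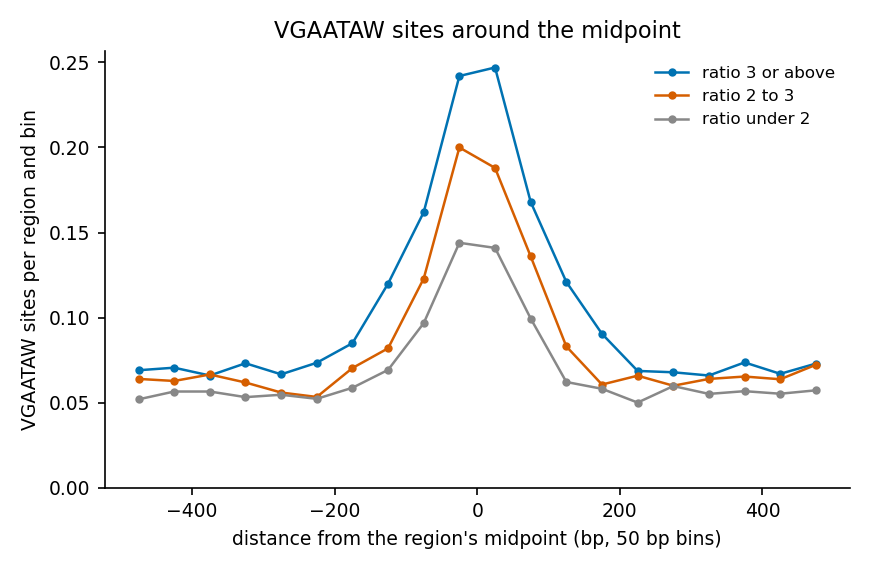
VGAATAW sites on both strands per region, in 50 bp bins of the distance from the midpoint in bp, for strong (blue), intermediate (orange) and weak (gray) regions. In intermediate regions the bins beside the midpoint hold 0.200 and 0.188 sites per region, below the 0.242 and 0.247 of strong regions, and the 3 sets come near each other beyond 200 bp.

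The palindrome GAATATTC, which holds VGAATAW wherever the base before it is not T, was rarer. Its tests share the limit given above for VGAATAW. It was present in the windows of 138 intermediate regions (3.26%), 4.08% of strong, 2.14% of weak and 2.72% of all regions. The share was higher than in weak regions (odds ratio 1.54, adjusted exact p = 9.31e-05). Against strong regions the difference was -0.821 points (-1.63 to -0.0163, adjusted exact p = 0.0540) and missed the threshold, which it passed under several alternatives. The sequence CACGTG, the G-box bound by bHLH and bZIP factors, was present in 9.66% of intermediate, 10.2% of strong, 7.09% of weak and 8.17% of all windows. Intermediate regions held it more often than weak ones (odds ratio 1.40, adjusted exact p = 1.66e-07). Their difference from strong regions was -0.518 points (-1.80 to 0.761, adjusted exact p = 0.443), and its sign turned under alternatives. These matches describe letters in a window and not bound sites.

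Between genes, the intermediate regions also took a middle place. By the reference annotation, with pseudogenes counted as genes, the midpoint was intergenic in 67.2% of intermediate regions (65.8 to 68.6), 75.6% of strong and 51.8% of weak regions (odds ratios 0.663 and 1.91, adjusted exact p = 7.24e-17 and 4.08e-70). It lay in an untranslated or non-coding exon in 24.5%, in an intron in 6.07% and in coding sequence in 2.15%, or 91 regions. The share in coding sequence was 1.08% in strong and 6.67% in weak regions (odds ratios 2.01 and 0.307, adjusted exact p = 0.000170 and 6.85e-34). For intermediate regions at 2.5 or above the share was 1.43%, and the difference from strong regions was no longer called (odds ratio 1.33, adjusted exact p = 0.337). In the deposited annotation the centre overlapped a gene in 741 intermediate regions (17.5%), against 11.8% of strong and 33.1% of weak regions (odds ratios 1.59 and 0.429, adjusted exact p = 2.79e-13 and 7.55e-89).

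Seen against the ratio in narrower steps, these shares changed gradually, with no step at 3. VGAATAW was present in 51.8% of regions from 1.5 to under 2, in 53.9%, 55.2%, 54.9% and 57.7% of the successive intervals of 0.25 from 2 to 3, and in 60.0% from 3 to under 3.5. From 7 upwards it reached 76.8%. The share of intergenic midpoints ran from 64.6% in the lowest of these intermediate intervals to 69.1% in the highest and was 70.3% from 3 to under 3.5. The intervals on either side of 3 overlapped in their 95% Wilson limits, 54.1 to 61.2 and 57.1 to 62.8 for VGAATAW. These steps are a description, with no test.

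**Figure D3:**
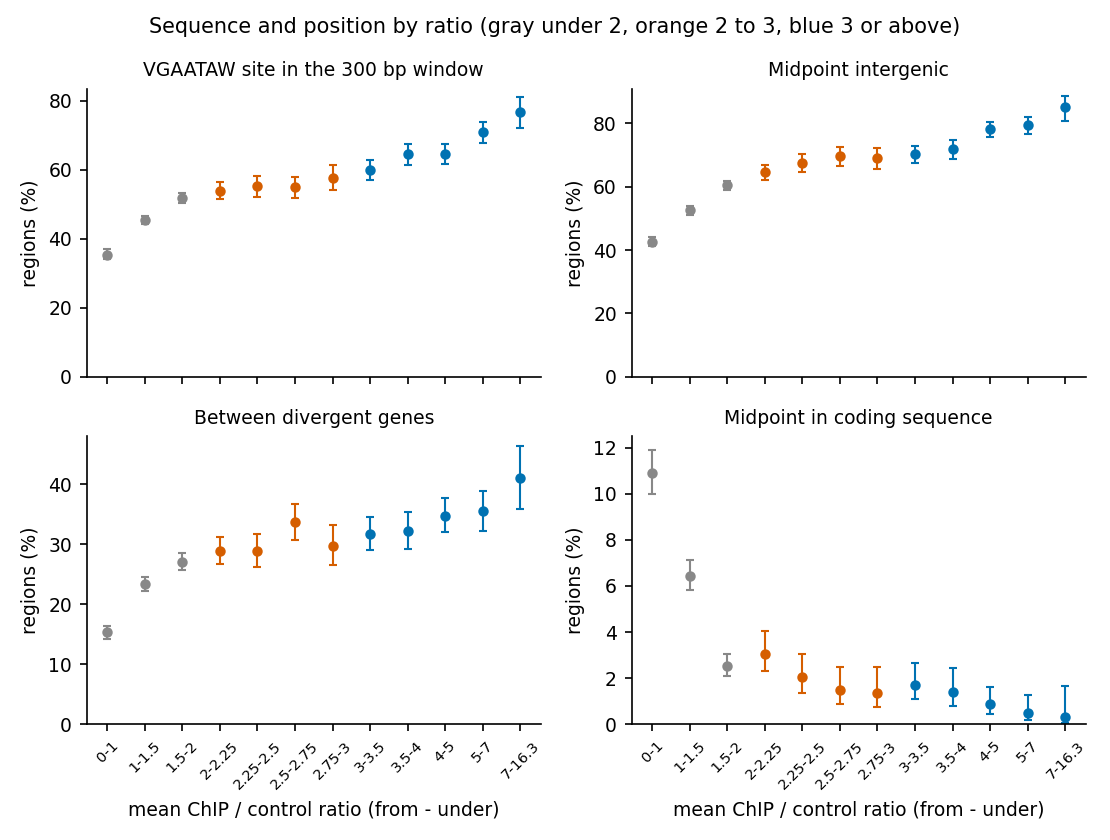
Percentage of regions, with 95% Wilson intervals, that hold a VGAATAW site, have an intergenic midpoint, lie between divergent genes or have their midpoint in coding sequence, in 12 steps of the mean ratio. The orange points from 2 to 3 continue the gray ones below and the blue ones above, with VGAATAW at 57.7% just under 3 and 60.0% just above.

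The deposited table gives the nearest gene on each side of a region's centre with its strand and distance. Intermediate regions lay between divergent genes, whose start sites both face the region, in 1276 cases (30.1%). This was fewer than among strong regions (34.1%, odds ratio 0.834, adjusted exact p = 0.000168) and more than among weak ones (22.0%, odds ratio 1.53, adjusted exact p = 7.66e-26). Another 1841 lay between tandem genes and 345 between convergent genes, and for 31 the arrangement was not given. Among the 3462 regions placed between genes, divergent pairs made up 36.9%, tandem pairs 53.2% and convergent pairs 9.97%, against 39.0%, 51.0% and 9.99% among strong regions. The difference in divergent pairs from strong regions was no longer called at 2.5 or above (32.0%, odds ratio 0.910, adjusted exact p = 0.169).

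The intergenic space around them was wide. The gap between the flanking genes had a median of 2850 bp, with 3200 bp for strong and 2284 bp for weak regions, and the nearer gene was a median of 505 bp away, with 710 bp and 308 bp. In divergent gaps these medians were 3394 bp and 616 bp for intermediate regions. The midpoint was within 1 kb upstream of a gene in 1920 intermediate regions (45.3%), 42.1% of strong and 41.8% of weak regions (odds ratios 1.14 and 1.15, adjusted exact p = 0.00355 and 9.31e-05). Weak regions were not uniform in this share. It was 35.4% at a ratio under 1, 43.7% from 1 to under 1.5 and 46.0% from 1.5 to under 2. The upstream difference from strong regions was lost with the gene models of the reference (43.8% and 43.3%, adjusted exact p = 0.660), with distances from the nearest edge (adjusted exact p = 0.662) and at 2.5 or above (adjusted exact p = 0.101), and that from weak regions turned among regions with at least 20 control reads (odds ratio 0.995, adjusted exact p = 0.919), a setting added after the data were seen. Within 1 kb downstream of a gene were 27.7%, 24.4% and 33.2% (odds ratios 1.19 and 0.769, adjusted exact p = 0.000839 and 2.04e-11), and with the reference's gene models the difference from strong regions missed the threshold (32.6% and 30.6%, adjusted exact p = 0.0552).

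Many intermediate regions had a strong region nearby. The nearest strong region was a median of 6737 bp away, midpoint to midpoint, against 3214 bp to the nearest other one for strong regions and 12738 bp for weak regions. Within 2 kb of a strong region were 1021 intermediate regions (24.1%), within 1 kb 436 and within 500 bp 143. The corresponding shares within 2 kb were 41.2% of strong and 8.09% of weak regions. Those near a strong region held VGAATAW in 52.9% of cases and the other 3213 in 55.8%, a difference of -2.95 points (-6.46 to 0.553, adjusted exact p = 0.110). The call depended on the distance, with an adjusted exact p of 0.0278 at 5 kb and 0.959 at 1 kb.

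The intermediate regions had 5863 genes within 3 kb, counting the genes at a region's centre and the nearest on each side. Of these genes, 4766 had 1 such region, 947 had 2 and 150 had 3 or more, up to 5. A strong region was within 3 kb of 5086 genes. The 1721 genes beside both kinds were 29.4% of the first and 33.8% of the second group. Among all 27770 protein-coding and miRNA genes of the reference, 17.2% had a strong region within 3 kb and 31.3% had no region of any ratio. Genes beside an intermediate region all have a region by definition, so 17.2% and 29.4% do not compare like with like. Seen from the regions, 1649 intermediate regions (38.9%) shared a gene with a strong region, and 146 had no gene within 3 kb. The matching share of weak regions was not computed, and the overlap was not tested.

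To describe single genes, each was given its highest ratio among regions within 3 kb. Of 27770 protein-coding and miRNA genes of the reference, an intermediate region was the highest for 3800 (13.7%), a strong one for 4765 (17.2%), and 8689 had no region. A set of 21 lists of genes in leaf polarity, organ development and hormone pathways, 290 genes in all, was read against these shares. In the lists an intermediate region was the highest for 62 genes (21.4%) and a strong one for 127 (43.8%). The lists were drawn up with earlier results of these data known, and these shares are counts with no test.

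The 62 genes were spread over 17 lists. By the deposited annotation, 35 of their regions lay upstream, 19 downstream and 8 at the gene itself. The positions given below for single genes follow the same annotation. VGAATAW was in the window of 31, and in 55.1% of all intermediate regions. Replicate 1 alone was at 3 or above in 48 and replicate 2 alone at 2 or above in 7. Over all intermediate regions these shares were 66.3% and 13.0%. The counting interval reached 3 in 59 and fell below 2 in 52, beside 92.6% and 90.3% of all intermediate regions. For 16 of the genes a strong region lay farther than 3 kb away with the gene still its nearest on that side. Their place among the intermediate genes thus depended on the reach. They were REV, MIR166A, MIR166B, BOP1, ARF5, IAA3, IAA27, TIR1, AUX1, TAA1, YUC2, BLH2, CKX3, CPD, NCED3 and CYP707A3.

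**Figure D4:**
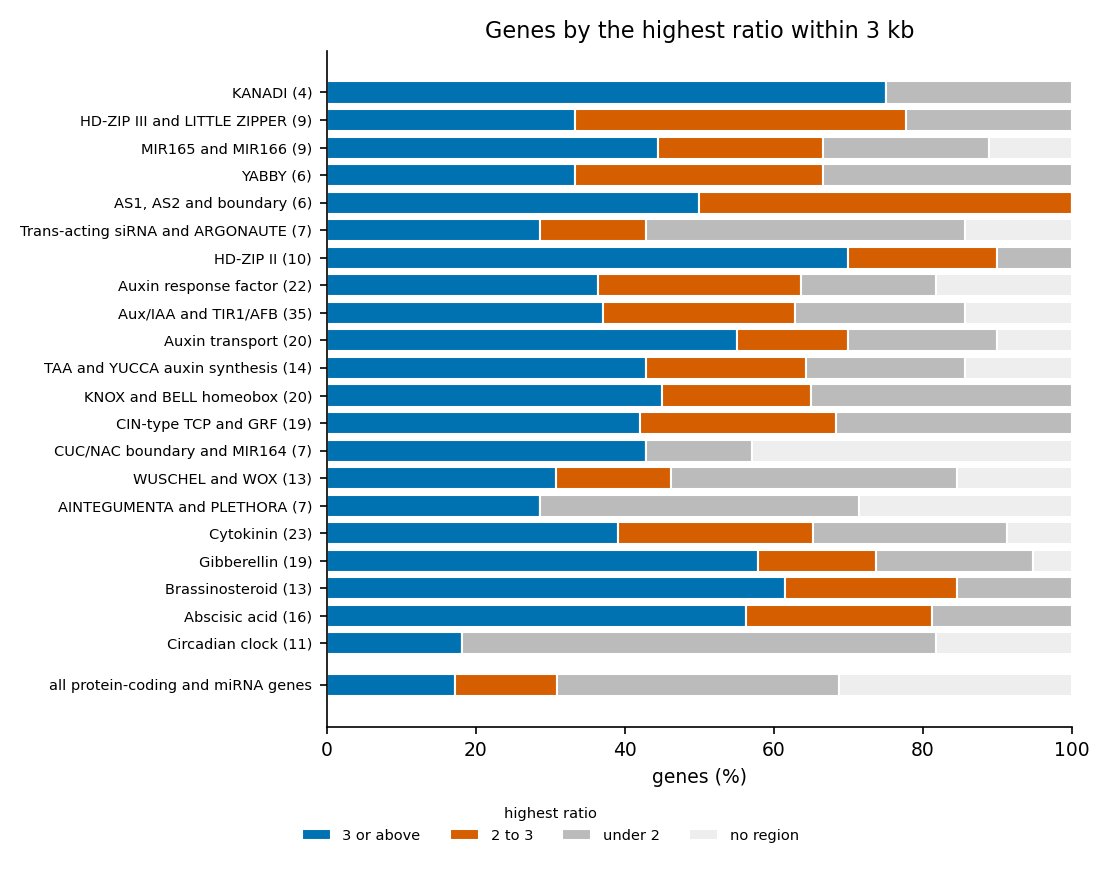
Percentage of the genes in each list, with the number of genes in brackets, by the highest ratio within 3 kb, beside the same for all protein-coding and miRNA genes in the bottom bar. Intermediate regions (orange) are the highest for 13.7% of all genes and for 0 genes in the KANADI, CUC/NAC boundary, AINTEGUMENTA and PLETHORA and circadian clock lists.

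Of the 9 HD-ZIP III and LITTLE ZIPPER genes, 4 had an intermediate region as their highest and 3 a strong one. REVOLUTA (REV) is a class III HD-ZIP factor that promotes adaxial fate. Its region 2411 bp upstream (chr5:24394455-24394768) had 89 reads in ChIP replicate 1, 37 in replicate 2, 21 in control 1 and 2 in control 2. The ratio was 2.74 ± 1.60 with a counting interval of 1.75 to 4.48, and a strong region at 6.57 lay beyond 3 kb. Errors of this and the following ratios are SDs of the 2 unscaled replicate ratios. These SDs hold the difference in reads between the libraries, with a median quotient of 2.02. After scaling, the median SD over intermediate regions was 0.274. Neither a small nor a large unscaled SD shows how close the replicates were after scaling. PHAVOLUTA (PHV), another class III HD-ZIP gene, had 103, 47, 35 and 1 reads in a region 1055 bp downstream (chr1:10794878-10795281), a ratio of 2.08 ± 1.10. CORONA (CNA), of the same class, had 60, 29, 21 and 0 reads 2478 bp upstream (chr1:19417035-19417278), a ratio of 2.12 ± 1.04. In each of these the control 1 reads were below those of both ChIP libraries. LITTLE ZIPPER 4 (ZPR4), a small protein that binds and inactivates HD-ZIP III factors, had 84, 40, 24 and 1 reads only 52 bp upstream (2.48 ± 1.24). Of the highest regions of these 4 genes, only that of REV held a VGAATAW site in the window. Another intermediate region of PHV, inside the gene at a ratio of 2.07 (79, 41, 29 and 0 reads), held 1 site.

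Regulators of HD-ZIP III transcripts followed. The precursor genes of the microRNAs that cleave these transcripts numbered 9, with 2 intermediate and 4 strong. MIR166A had 227, 138, 65 and 1 reads in a region 2826 bp downstream (chr2:19178813-19179363), at a ratio of 2.77 ± 0.954, with a counting interval of 2.12 to 3.65. Its midpoint fell in an exon of the reference annotation, and a strong region at 3.56 lay beyond 3 kb. MIR166B had 94.1, 46.2, 21 and 4 reads 208 bp upstream (2.81 ± 1.35), and its strong region beyond 3 kb was at 4.39. MIR166A was 1 of the few with replicate 2 above 2 (2.09), whereas in MIR166B replicate 2 was at 1.85. AGO10, an Argonaute that binds the same microRNAs and keeps them from acting, had 59, 37, 21 and 1 reads in a region inside the gene (2.18 ± 0.707).

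Among genes of abaxial identity and organ borders, 2 of 6 YABBY genes and 3 of 6 genes of the AS1, AS2 and boundary list were intermediate, and none of the 4 KANADI genes, of which 3 had a strong region. YAB1 (FILAMENTOUS FLOWER), a YABBY factor of the abaxial side, had few reads, 26, 15, 8 and 0, in a region of 137 bp located 1535 bp upstream, and the interval of its ratio of 2.56 ran from 1.19 to 6.33. YAB5 had 95, 41, 28 and 0 reads 28 bp upstream by the deposited distance (2.43 ± 1.36). In the reference the midpoint of this region lay in an untranslated or non-coding exon. LATERAL ORGAN BOUNDARIES (LOB), which marks the base of lateral organs, had 109, 72, 35 and 1 reads 945 bp downstream (2.51 ± 0.727). Neither of the YABBY regions nor that of LOB held VGAATAW. Its relative JAGGED LATERAL ORGANS (JLO) had 51, 33, 20 and 0 reads 2487 bp upstream (2.10 ± 0.636). BLADE-ON-PETIOLE1 (BOP1), a co-regulator at the leaf base, had 226, 120, 72 and 0 reads 2584 bp upstream (2.40 ± 1.04), with 1 VGAATAW site and 1 CACGTG site, and a strong region 1156 bp from its midpoint. In the HD-ZIP II list, whose 10 genes had 7 strong regions, ATHB4 and HAT14 were intermediate, at 2.5 ± 1.05 and 2.41 ± 1.30.

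**Figure D5:**
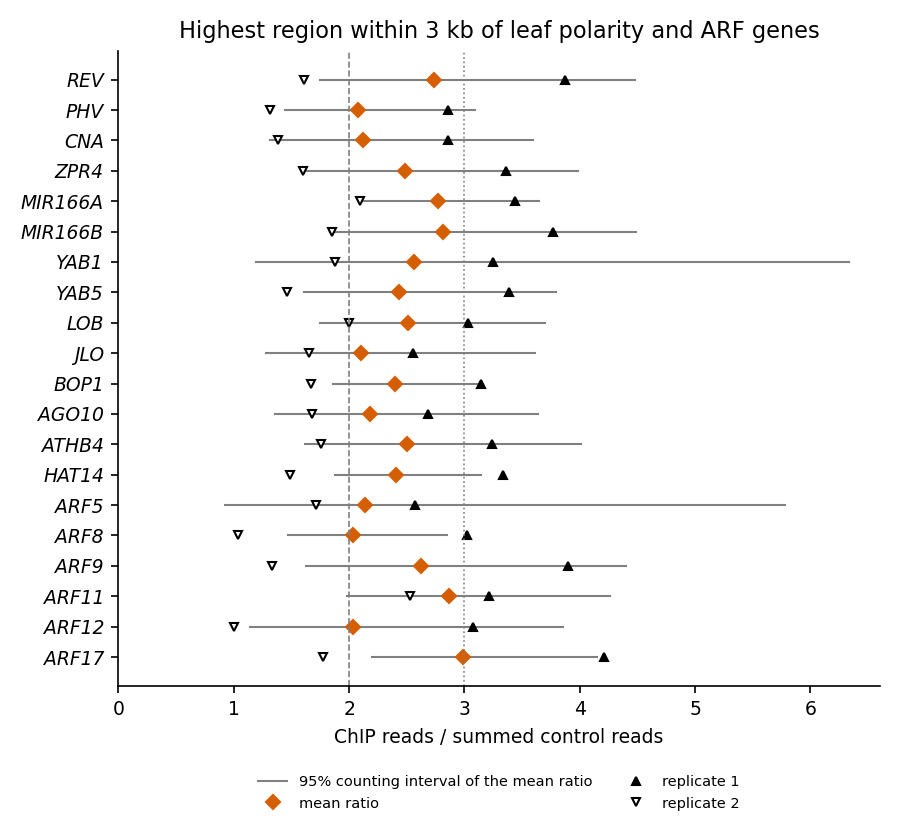
Ratio of the highest region within 3 kb of 20 leaf polarity and ARF genes (orange diamonds), the ratios of ChIP replicate 1 (black triangles) and replicate 2 (open triangles), and the exact 95% counting interval (gray lines), with 2 and 3 marked. Replicate 1 lies above replicate 2 in each gene, and of the 20 intervals only that of ARF8, at 1.47 to 2.85, ends below 3.

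Of the 22 ARF genes, which encode the factors that bind auxin-responsive promoters, 6 were intermediate and 8 strong. ARF17, which had the highest intermediate ratio of the family, had 202, 85, 47 and 1 reads 283 bp upstream (chr1:29271791-29272269), a ratio of 2.99 ± 1.72 that lay just under the limit, with an interval of 2.20 to 4.15. ARF11 had 109, 86, 32 and 2 reads 1035 bp upstream (chr2:19103421-19103838), a ratio of 2.87 ± 0.478, and its replicate 2 ratio of 2.53 was the highest among the 62 genes. Its window held 4 VGAATAW sites, more than that of any other of the 20 genes plotted. ARF5 (MONOPTEROS), the activator needed for the embryonic root, rested on 18, 12, 7 and 0 reads 410 bp upstream, a ratio of 2.14 with an interval of 0.922 to 5.78, and a strong region at 5.12 lay beyond 3 kb. ARF8, a regulator of flower and fruit growth, had 145, 50, 46 and 2 reads 678 bp upstream (2.03 ± 1.40). ARF9 and ARF12 were at 2.62 ± 1.82 and 2.03 ± 1.46, both downstream.

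Other steps of auxin action are auxin perception, transport and synthesis. Of 35 Aux/IAA repressor and TIR1/AFB receptor genes, 9 were intermediate and 13 strong. IAA28 was at 2.96 ± 2.23 from 59, 18, 12 and 1 reads 168 bp upstream, IAA14 (SOLITARY-ROOT), a repressor of lateral root formation, at 2.87 ± 1.32 inside the gene, and the auxin receptor gene TIR1 at 2.41 ± 0.892. The reference placed the midpoint of the IAA28 region in an untranslated or non-coding exon. IAA3, IAA8, IAA11, IAA26, IAA27 and AFB4 lay between 2.10 and 2.73. Among 20 transport genes 3 were intermediate and 11 strong. The efflux carrier gene PIN7 had 118, 51, 29 and 0 reads 2444 bp downstream (2.91 ± 1.63). The influx carrier gene AUX1 had 136, 54, 37 and 0 reads in an intron, with 3 VGAATAW sites (2.57 ± 1.57), and a strong region at 5.73 beyond 3 kb. Of the 14 TAA and YUCCA synthesis genes, TAA1, which makes indole-3-pyruvate, was at 2.29 ± 0.648, YUC2 at 2.44 ± 0.915 and YUC11 at 2.02 ± 1.28, and 6 others had a strong region.

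In the lists of organ growth and meristem genes, the homeobox gene KNAT1, which keeps meristem cells undifferentiated, had 38, 11, 10 and 1 reads 129 bp upstream (2.23 ± 1.74), and the nearest strong region was 347367 bp away. ATH1, a BELL homeobox gene of the shoot, had 177, 102, 50 and 1 reads 290 bp upstream (2.74 ± 1.04). BLH2 and BLH9 were at 2.58 ± 1.13 and 2.10 ± 1.09. MIR319A, whose microRNA targets CIN-type TCP transcripts, had 87, 66, 29 and 0 reads 2384 bp downstream. Its replicate ratios, not scaled for the difference between the libraries, were 3 and 2.28. The growth-regulating factor genes GRF1, GRF7, GRF8 and GRF9 lay between 2.30 and 2.80. WOX2, a homeobox gene of the early embryo, and WOX12 were at 2.35 ± 0.919 and 2.5 ± 0.751.

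Hormone genes outside the auxin pathway supplied 16 of the 62. Of 23 cytokinin genes 6 were intermediate and 9 strong. ARR5, a type-A response regulator that dampens the cytokinin signal, had 165, 73, 40 and 0 reads 28 bp upstream with 2 VGAATAW sites (2.98 ± 1.63), and the type-B activators ARR1 and ARR10 were at 2.82 ± 1.43 and 2.39 ± 1.13. The cytokinin oxidase genes CKX3, CKX4 and CKX6 lay between 2.18 and 2.82. Of 19 gibberellin genes 3 were intermediate and 11 strong. The synthesis gene GA20OX2 was at 2.94 ± 1.67, GA20OX1 at 2.19 ± 0.853 and GA3OX2 at 2.11 ± 0.758, the last with its midpoint in coding sequence. Of 13 brassinosteroid genes 3 were intermediate and 8 strong. The synthesis genes BR6OX1 and CPD were at 2.74 ± 2.20 and 2.14 ± 0.556, and the transcription factor gene BZR1 was at 2.27 ± 1.25. CPD also had a strong region at 5.45 beyond 3 kb. Of 16 abscisic acid genes 4 were intermediate and 9 strong. ABI5, a bZIP factor of the response, had 183, 106, 48 and 1 reads in an intron with a CACGTG site (2.95 ± 1.11). NCED3, which controls synthesis under drought, was at 2.83 ± 1.65, and the catabolic genes CYP707A2 and CYP707A3 were at 2.73 ± 1.56 and 2.54 ± 1.52. No list gene in this group had a replicate 2 ratio above the 2.16 of ABI5.

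The study also lists genes that were down-regulated after KAN1 induction on tiling arrays, in plants with another transgene and on other samples than those of the ChIP. Of the 494 such genes found in the reference, an intermediate region was the highest within 3 kb for 83 (16.8%) and a strong one for 308 (62.3%), beside 13.7% and 17.2% of all protein-coding and miRNA genes. Read from the regions, 279 intermediate regions (6.59%, 95% Wilson interval 5.88 to 7.38) lay within 3 kb of a listed gene, against 12.1% of strong and 3.15% of weak regions. These are counts with no test.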

How the data were processed

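Chromatin immunoprecipitation followed by sequencing was carried out for 2 KAN1-FLAG libraries and 2 controls, grouped by the sample labels. The authors aligned the reads to TAIR10, cut down duplicates and called regions. The values they deposited are estimated counts of reads per region in each library, with no scaling between libraries. The deposited table also gives the size of each region and other distances, from its centre to the nearest genes in bp. Its false discovery rates, rank product and rank are the authors' own comparisons and were not used. The caller and its version are not given in the sources used here. The right-hand gene name is empty for 80 regions, and for 725 more the missing right-hand strand was filled from the reference by gene ID.

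The intermediate regions and the gene lists were chosen with earlier results of these data known. The named genes were the list genes whose highest-ratio region was intermediate, the 3 regions nearest to each threshold on either side, and the 3 intermediate regions with most VGAATAW sites, ties being broken by the ratio. Ratios were computed without scaling the libraries, and 6 regions outside the chromosomes were left out. The counting interval is the Clopper-Pearson interval of the ChIP share of reads, converted to a ratio. Reads per region were fractional in 731 regions of ChIP replicate 1 and were used unrounded.

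Midpoints, motif sites on both strands and gene classes were taken from the TAIR10.1 reference. The first 20 bases of 347 of 347 transcripts with TAIR10 coordinates in the study's supplement matched it. Shares were compared by Fisher's exact test with Newcombe intervals of the difference, in Python 3.11.15 with scipy 1.17.1, statsmodels 0.14.6, numpy 2.4.6, pandas 2.3.3 and matplotlib 3.10.9, and the steps were tested on simulated data. Alternatives covered the control, scaling of the replicates to equal totals, 10 added reads, each library left out, the range of ratios, the motif window, the annotation and the distances.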

Additional observations from a re-analysis of the deposited data

How the results depend on the processing

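Of 216 recomputed values, 177 were classed as unchanged, among them each comparison of VGAATAW, intergenic midpoints and gene overlap with strong and weak regions. For tests this means that direction and side of the threshold were kept, whereas counts of regions or genes have no threshold. Leaving out the nearly empty control repeats the use of the other control alone, so identical values were counted again. The motif windows could not change gene overlap. The 177 values are therefore not independent checks. Odds ratios below compare intermediate with strong regions unless weak ones are named.

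The number of members depended on the libraries. It was 1675 at 2.5 to 3 and 2559 at 2 to 2.5, and ranged from 0 to 5439 when 1 library was left out: 2676 without ChIP replicate 1, 5439 without ChIP replicate 2, 0 without control 1 and 4340 without control 2. Of the members, 13.0% stayed without ChIP replicate 1 (20.5% of those found then), 33.6% without ChIP replicate 2 (26.2%), 90.8% with scaled replicates (92.2%) and 53.9% with 10 added reads (63.5%). Without control 1 no test could be made.

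For GAATATTC the threshold was passed with control 1 alone (0.741), scaled replicates (0.734), 10 added reads (0.601), members at 2 to 2.5 (0.719), whole regions (0.759) and at least 20 control reads (0.774), and with 1 library left out it ranged from 0.549 to 0.747. For CACGTG the odds ratio was 1.05 with 10 added reads, 1.05 in 200 bp windows, 1.01 with at least 20 control reads and 0.848 in whole regions, which passed, and from 0.904 to 1.19 with 1 library left out, turning without ChIP replicate 1 (1.19). For 1 kb upstream it was 1.03 with 10 added reads, 1.11 at 2.5 to 3, 1.02 with the reference's genes and 1.02 from the nearest edge, and 1.04 to 1.12 with 1 library left out, the call being lost without ChIP replicate 1. Against weak regions it was 1.04 with 10 added reads, 0.995 with at least 20 control reads, and 0.974 to 1.27 with 1 library left out, turning without ChIP replicate 1 (0.974). The odds ratio was 1.33 for coding midpoints at 2.5 to 3, 0.910 for divergent genes at 2.5 to 3 and 1.10 for 1 kb downstream with the reference's genes, none of them called.

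For VGAATAW near and far from strong regions it was 0.811 with 10 added reads, 0.817 at 2 to 2.5, 0.844 in whole regions, 0.869 at 5 kb, all called, and 1.01 at 1 kb. With 1 library left out it ranged from 0.790 to 0.900, called without ChIP replicate 1 (0.790) and replicate 2 (0.884). Windows 1000 bp beyond each end held VGAATAW in 29.0% of cases, and 436 members lay within 1 kb and 1847 within 5 kb of a strong region. The settings with 20 control reads and with pseudogenes as intergenic were added after the data were seen. The causes of these changes were not tested. No paired analysis was possible because no test compared the libraries, and both ChIP ratios share the same controls.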

Other observations

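Intermediate regions were spread over the chromosomes much as strong regions were. Chromosomes 1 to 5 carried 1125, 680, 759, 647 and 1023 of them, or between 32.4 and 37.9 per Mb, against 33.1 to 38.8 per Mb for strong regions. Chromosome 5 had the highest density of intermediate regions (37.9 per Mb, strong 34.0) and chromosome 1 that of strong ones (38.8 per Mb, intermediate 37.0). Over 116 windows of 1 Mb the number of intermediate regions ran from 0 to 76 with a median of 37, and its Spearman correlation with the number of strong regions was 0.822, a description over windows that share their gene content.

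Nearly all intermediate regions had a protein-coding gene within 3 kb (93.6%, strong 93.4%, weak 91.0%). Pseudogenes lay within 3 kb of 4.35% of intermediate regions (95% Wilson interval 3.77 to 5), 2.69% of strong and 9.80% of weak regions. MicroRNA genes lay beside 39 intermediate (0.921%) and 51 strong regions (1.22%), and beside 0.832% of weak regions. For tRNA genes the values were 67 (1.58%) and 57 (1.37%), and 1.97% of weak regions. These shares were not tested.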
